A study of Mus musculus with 2 samples.

Results

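Plasma cells were picked from 2 mouse spleen libraries by 1 transcript, Jchain, which encodes the joining chain that links IgM and IgA molecules into polymers. A barcode counted as a plasma cell when it held at least 50 UMIs (unique molecular identifiers, 1 per captured mRNA molecule) of Jchain, at least 500 UMIs and 200 genes in all, and under 10% mitochondrial UMIs. This gave 185 plasma cells among 18316 cells past the same filters. The knock-in library (KI) held 152 of 8583 cells and the wild-type library (WT) 33 of 9733.

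The KI library came from spleen with the M694I knock-in of Mefv and the WT library from spleen labelled M694I WT, both unsorted splenocytes after red cell lysis. The titles name 1 mouse per library, the design text speaks of mice, and whether animals were pooled is not given. MEFV encodes pyrin, a sensor that assembles an inflammasome, and M694I is a change known from familial Mediterranean fever. The mice were age-matched and kept free of specific pathogens, and no age, sex or strain was used here. With 1 library per genotype, the genotype cannot be told apart from the mouse, the day or the preparation, so no test was made and every ratio below is a description of these libraries.

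Plasma cells are the end stage of the B lineage, and they turn over most of their protein synthesis to antibody. Prdm1 (Blimp-1), Irf4 and Xbp1 are the regulators known to drive that state: Prdm1 shuts off B cell genes, and Xbp1 expands the endoplasmic reticulum (ER), where antibody chains are inserted, folded, glycosylated and checked. Dividing precursors, called plasmablasts, become non-dividing plasma cells that live in niches of the spleen and bone marrow.

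The files held 9000 KI and 10449 WT barcodes with 25193274 and 32797052 UMIs. In these, 27 barcode sequences occurred in both libraries, and 0 of them were plasma cells. Among cells past the filters, plasma cells held 98.8% of Jchain UMIs in the KI library and 98.5% in the WT library. Since Jchain picked them, this share is no check of the label. They held 81.9% (KI) and 48.8% (WT) of the immunoglobulin and Jchain UMIs of the same cells. They were deep: the median plasma cell had 13810 UMIs in KI and 12818 in WT, against 2100 and 2594 in B cells of the same libraries.

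The label was checked against markers that the rule did not use. Xbp1 was detected in 149 of 152 KI and 32 of 33 WT plasma cells, although T cells also had it in 31.1% (KI) and 41.4% (WT). Sdc1 (syndecan-1, the CD138 surface marker) was detected in 68.4% of KI and 69.7% of WT plasma cells, against 0.694% and 0.990% of T cells. Derl3, a component of ER-associated degradation, was detected in 80.9% and 69.7% of plasma cells, against 0.189% and 0.116% of T cells. T cells serve here as the background for free RNA, and their median depth was lower, at 2511 UMIs (KI) and 3080.5 (WT). Tnfrsf17 (BCMA, a survival receptor of plasma cells) had 163 KI and 35 WT UMIs in plasma cells and 0 UMIs in the 8260 B cells and 3302 T cells. Of 5 markers of plasmacytoid dendritic cells, Siglech and Klk1 were at 0 UMIs in all plasma cells. In KI 3 of the 5 were detected, with 48 UMIs and at least 1 UMI in 19 of 152 cells. In WT 1 of the 5 was detected, with 18 UMIs in 1 cell.

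A few cells went against the label. In 2 KI cells and 1 WT cell, immunoglobulin made up under 10% of UMIs, and all 3 were in the cycling class described below. The WT one held 36328 UMIs with 1.12% immunoglobulin and 53 Jchain UMIs, beside 97 UMIs of 6 B cell markers and 31 of 5 germinal centre markers. Markers of T, NK, myeloid or plasmacytoid dendritic cells reached at least 3 UMIs in 23 KI and 6 WT plasma cells. T cell markers did so in 9 KI and 3 WT cells, and myeloid markers in 13 and 2. Markers of plasmacytoid dendritic cells did so in 4 KI cells and 1 WT cell, and NK markers in 3 and 1.

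Just inside the limit, 9 KI and 2 WT cells had 50 to 99 Jchain UMIs, with a median immunoglobulin share of 33.6% (KI) and 29.6% (WT). Just outside it, 10 KI and 4 WT cells had 20 to 49, with medians of 9.17% and 5.80%. Most plasma cells lay far from the limit, as 143 KI and 31 WT cells had at least 100.

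Immunoglobulin dominated the RNA of each plasma cell but not to the same degree. Immunoglobulin and Jchain genes together took 2.07% to 88.5% of UMIs in KI plasma cells, with a median of 51.3%, and 1.12% to 79.8% with a median of 54.8% in WT plasma cells. All levels below were therefore scaled to CPM without immunoglobulin and Jchain genes, the usual scaling of a gene's UMIs by the total. Plasma cells held, outside those genes, 1153322 UMIs in KI and 227163 in WT. Ratios are given with exact 95% binomial intervals on summed UMIs. These cover counting error only, and neither the variation between cells nor the difference between mice.

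**Figure D1:**
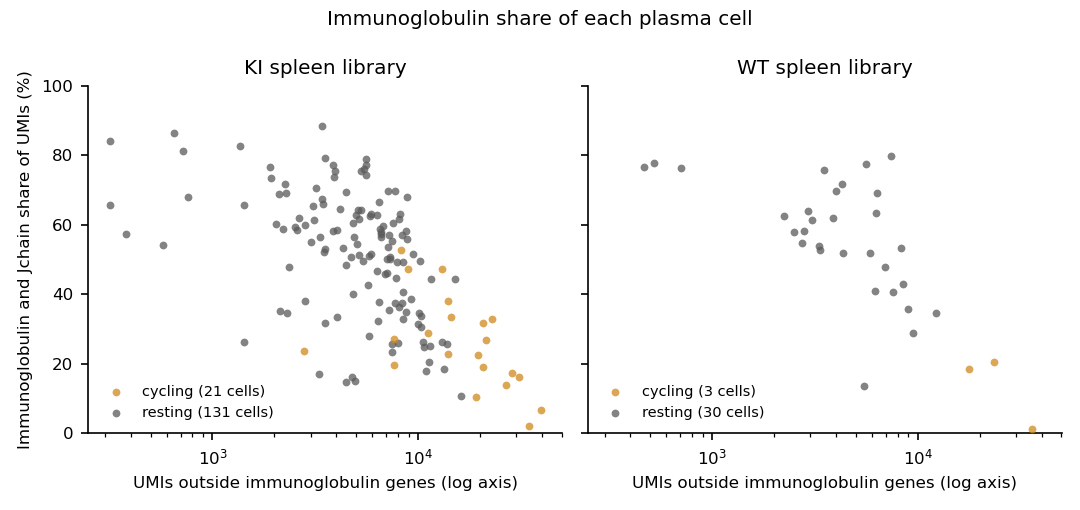
Each point is 1 plasma cell, with its UMIs outside immunoglobulin genes on a log axis and the immunoglobulin and Jchain share of its UMIs in percent. The 21 KI and 3 WT cycling cells lie mostly at the deep end, though the shallowest KI one has 2790 UMIs on this axis. Cycling cells have medians of 23.6% (KI) and 18.6% (WT) immunoglobulin, against 55.2% and 58.1% in the resting cells.

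IgM was the leading antibody class in both libraries. The heavy-chain constant gene with most UMIs was Ighm in 115 of 152 KI cells (75.7%) and 22 of 33 WT cells (66.7%), an IgG gene in 28 KI and 8 WT cells, and Igha in 9 KI and 3 WT cells. The KI IgG cells were led by Ighg2b in 10, Ighg3 in 10, Ighg2c in 7 and Ighg1 in 1, and the WT ones by Ighg2c in 4 and Ighg3 in 4. The class was clear within a cell: the leading gene held a median of 99.9% of heavy-chain constant UMIs in KI and 100% in WT, and at least 89.8% in every plasma cell. A lambda light chain led in 6 KI cells and 0 WT cells, and kappa in the rest. The class shares of the libraries overlapped within their intervals, which for IgM ran from 68.0% to 82.2% in KI and from 48.2% to 82.0% in WT.

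Against B cells of their own library, plasma cells carried a programme for making and exporting protein that reached far beyond the antibody genes. B cells were taken as cells with under 5 Jchain UMIs and at least 1 UMI each of Cd79a and Ms4a1 (3775 KI and 4485 WT cells). Of 2529 genes with a mean of at least 50 CPM and at least 20 UMIs, 26.1% were over 1.5-fold higher and 25.7% over 1.5-fold lower in KI plasma cells than in KI B cells; in WT, of 2650 genes, 28.2% were higher and 25.8% lower. Since Jchain picked the cells and travels with these genes, the ratios describe the cells and test nothing. The median over all genes was -0.07 (log2) in KI and -0.03 in WT.

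The steps of the secretory route stood out in order. Of the 23 genes of ER translocation and signal peptide cleavage, 21 passed the filter in each library, and 20 in KI and 19 in WT were over 1.5-fold higher in plasma cells, with a median log2 ratio of 2.23 (KI) and 2.05 (WT). Ssr4, a subunit of the translocon-associated complex, had 3745 CPM in KI plasma cells against 243 CPM in KI B cells, and 2782 against 182 CPM in WT. Sec11c and Spcs1, both of the signal peptidase, had KI ratios of 3.36 and 3.45 and WT ratios of 3.61 and 3.66. N-glycosylation genes were higher in 14 of 15 that passed in KI and 15 of 16 in WT, with 1 lower in WT. Among them Ddost, a subunit of oligosaccharyltransferase, stood at 865 CPM in KI plasma cells against 79.2 CPM in KI B cells.

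ER chaperones and folding enzymes had the highest median of the secretory lists, 3.08 in both libraries. Of 25 genes, 22 of the 23 that passed in KI and 21 of the 22 that passed in WT were over 1.5-fold higher in plasma cells. Fkbp11, an ER prolyl isomerase, had 535 CPM in KI plasma cells against 4.23 CPM in KI B cells, and 484 against 3.43 CPM in WT. Creld2, an ER stress-induced chaperone, had ratios of 5.59 (KI) and 5.08 (WT), though 1 cell gave 43% of its WT plasma cell UMIs. Hspa5, the chaperone BiP, stood at 2.46 and 2.31, from 3047 and 497 plasma cell UMIs. Sdf2l1, a partner of BiP, had 4.63 and 5.05, and Prdx4, an ER peroxiredoxin, 4.47 and 4.87.

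Genes of disposal and transport were also higher in plasma cells. All 15 genes of ER-associated degradation that passed, of 20, were over 1.5-fold higher in both libraries, with medians of 2.32 (KI) and 2.11 (WT). Derl3 had ratios of 6.36 and 7.43, and Edem1 and Edem2, which direct misfolded glycoproteins to disposal, had 4.29 and 5.16 in KI and 3.58 and 5.15 in WT. ER to Golgi transport genes were higher in 21 of 22 (KI) and 16 of 22 (WT), with medians of 1.62 and 1.53. The cargo receptor Lman1 had 456 CPM in KI plasma cells against 26.3 CPM in KI B cells, and 335 against 22.9 CPM in WT.

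Promoter sequence offered a second view of the same genes. The ER stress response element, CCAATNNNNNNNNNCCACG, is the motif through which Atf6 and Xbp1, with the CCAAT factor NF-Y, are known to act on chaperone genes. It was searched on both strands (reverse complement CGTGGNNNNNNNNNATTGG) in the 250 bases before to 50 after each gene's start, in RefSeq sequences of GRCm38.p6. It occurred in 37 of 27025 genes (0.137%), in 8 of the 23 matched folding genes (Calr, Canx, Creld2, Dnajc3, Hsp90b1, Hspa5, Pdia6 and Ero1b, which the files call Ero1lb) and in 2 of 17 matched degradation genes (Derl3 and Syvn1). The matched members of the translocation, glycosylation, transport and unfolded protein response lists held 0. The motif and the lists were chosen with the expression results known, a match is not a site in use, and genes without one have only been shown to lack these letters in this window. Matches are shown here for genes whose levels the text gives, and for Pdia6, whose level it does not give. They are printed on each gene's own strand, with the fixed letters of the motif in capitals.
Hspa5, chr2:34772020-34772048, plus strand: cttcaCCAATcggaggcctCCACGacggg
Hsp90b1, chr10:86705513-86705571, minus strand: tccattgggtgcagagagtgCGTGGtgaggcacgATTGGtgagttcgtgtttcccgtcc
Creld2, chr15:88819500-88819558, plus strand: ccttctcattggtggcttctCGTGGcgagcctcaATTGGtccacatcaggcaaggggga
Pdia6, chr12:17266471-17266529, plus strand: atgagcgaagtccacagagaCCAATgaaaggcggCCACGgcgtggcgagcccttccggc
Derl3, chr10:75893222-75893280, plus strand: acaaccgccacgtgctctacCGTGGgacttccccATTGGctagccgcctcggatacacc
Creld2, Derl3 and the Hsp90b1 match shown carry the motif on the opposite strand, 108, 138 and 89 bases before the start. Hspa5 and Pdia6 carry it as spelled above, 47 and 80 bases before the RefSeq start. GENCODE places the start of Hspa5 further upstream, at chr2:34771970, so by GENCODE its match lies within the gene. A second Hsp90b1 match, in the other orientation, lay 194 bases before its start.

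**Figure D2:**
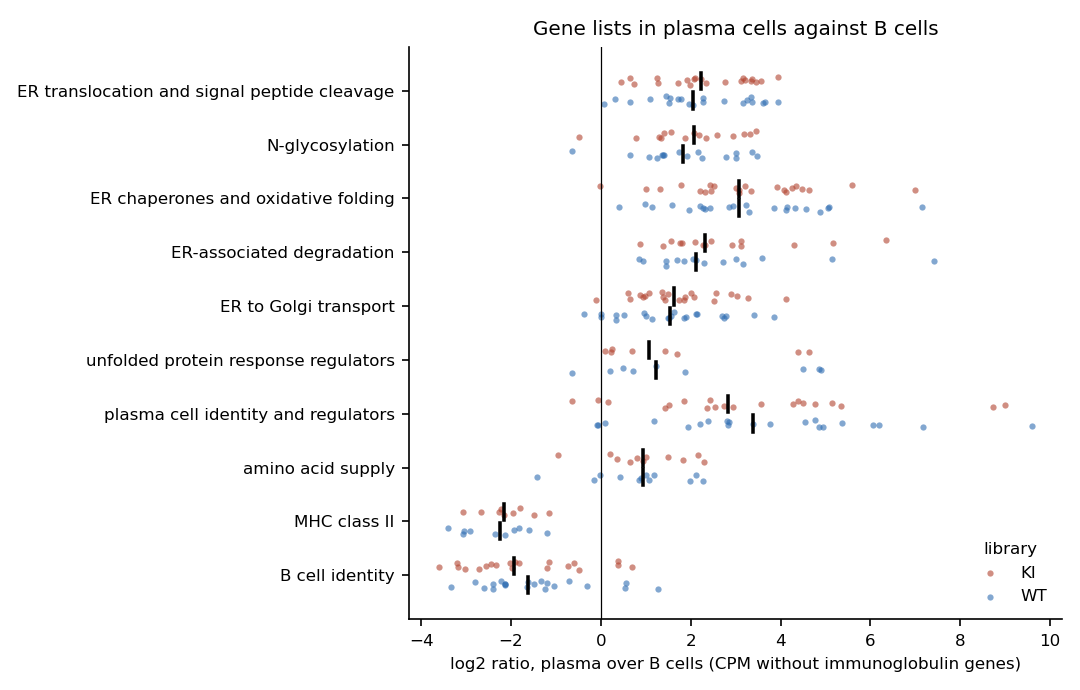
Each point is 1 gene that passed the filter, at its log2 ratio of plasma cells over B cells (CPM without immunoglobulin genes), with KI above WT in each list and a black bar at the median. The medians of the 5 secretory lists lie between 1.53 and 3.08, and all MHC class II points lie left of 0, with medians of -2.15 (KI) and -2.25 (WT).

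Regulators and metabolism were less uniform. Of the 24 genes of plasma cell identity, 17 of 20 in KI and 18 of 21 in WT were higher in plasma cells, with medians of 2.84 and 3.38. Xbp1 had 1654 CPM in KI plasma cells against 78.7 CPM in KI B cells, and 2408 against 83.2 CPM in WT. Eaf2, a transcription elongation factor partner, had 5.35 and 5.37. Regulators of the unfolded protein response had medians of 1.06 (KI) and 1.24 (WT), which became -0.18 and -0.25 with immunoglobulin in the total; its sensor Atf6 had 1.69 and 1.87. Amino acid supply genes had a median of 0.95 in each library, which became -0.15 (KI) and -0.31 (WT) with immunoglobulin in the total. Among them were Slc3a2, the heavy chain of large amino acid transporters (2.31 and 2.27), and Phgdh, the first enzyme of serine synthesis (1.84 and 2.12). Nuclear genes of oxidative phosphorylation were higher in 24 of 36 in each library, with medians of 0.74 and 0.87, and none was lower.

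Some genes outside those lists were also far higher in plasma cells than in B cells. Prg2, the eosinophil major basic protein, had 334 UMIs in KI plasma cells and 0 in KI B cells, and 120 and 0 in WT, so its log2 ratio was at least 10.04 (KI) and 11.38 (WT) against a floor of 3 UMIs. Slpi, a secreted inhibitor of serine proteases at chr2:164354070-164389095 (GRCm38, minus strand), had 4041 CPM in KI plasma cells against 9.47 CPM in KI B cells, and 1329 against 9.17 CPM in WT. The metallothioneins Mt1 and Mt2, which bind zinc and copper, had 6.01 and 6.50 in KI and 4.40 and 5.77 in WT. Pon3, a lactonase, had 7.01 and 8.36, and Cacna1s, a calcium channel subunit best known from muscle, had 5.74 and 5.57. Isg20 and Ly6a, both interferon-inducible elsewhere, had 4.25 and 2.72 in KI and 4.30 and 3.88 in WT, and led the 8 of 36 type I interferon genes that passed.

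B cell genes were low but not gone. Of the 28 genes of B cell identity, 16 of 20 in KI and 17 of 21 in WT were over 1.5-fold lower in plasma cells, with medians of -1.94 and -1.62. Ebf1, a B lineage transcription factor, had 195 CPM in KI plasma cells against 1779 CPM in KI B cells, and 321 against 2226 CPM in WT, where 1 cell gave 62% of its plasma cell UMIs. All MHC class II genes that passed were lower, 9 of 9 in KI and 10 of 10 in WT: H2-Aa had 988 against 4395 CPM in KI and 572 against 4328 CPM in WT. Receptors that guide B cells were lower too, with Ccr7 at -3.02 (KI) and -2.39 (WT), and S1pr1 at -1.90 and -3.07. Selplg, the selectin ligand PSGL-1, was higher, at 1.48 and 1.95. Growth genes downstream of Myc were lower in 9 (KI) and 8 (WT) of 13.

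Plasma cells in division were a minority. A plasma cell was called cycling with at least 5 UMIs of 30 cell cycle genes making up at least 0.1% of its non-immunoglobulin UMIs, and resting otherwise. By this limit 21 of 152 KI cells (13.8%, 8.76% to 20.3%) and 3 of 33 WT cells (9.09%, 1.92% to 24.3%) were cycling, a ratio of 1.52 (0.454 to 7.96). The class is a range of a score rather than a type: 15 KI cells and 1 WT cell had 3 to 11 such UMIs, while 60 KI and 20 WT cells had 0. Cycling cells had a median of 24749 UMIs in KI against 12679 in KI resting cells, and 29730 against 11342.5 in WT. With each cell thinned to 1000 non-immunoglobulin UMIs, which left out 7 KI and 3 WT cells, 14 of 145 KI cells (9.66%) and 2 of 30 WT cells (6.67%) had a UMI of Mki67, Top2a or Cdk1. Cycling cells occurred in each class, as 14 of 115 IgM, 6 of 28 IgG and 1 of 9 IgA cells in KI, and 2 of 22 IgM, 1 of 8 IgG and 0 of 3 IgA cells in WT.

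Because WT held only 3 cycling cells, cycling and resting plasma cells were compared over both libraries, 24 against 161 cells, with the KI value beside. Of 2470 genes, 39.8% were past 1.5-fold: 25% were over 1.5-fold higher and 14.8% over 1.5-fold lower in cycling cells, with a median over all genes of 0.19; TMM scaling moves that median by -0.18, and a total with immunoglobulin moves it by 0.77, since cycling cells hold less antibody RNA. The genes that made the split are no result. Of 30 other genes of DNA replication and growth, all 21 that passed were higher, with a median of 2.58. Stmn1, a microtubule regulator, had 604 CPM in cycling against 22.9 CPM in resting cells, with a ratio of 4.72 (4.08 to 5.44) and 4.21 in KI alone. Smc2, a condensin subunit, had 181 against 6.54 CPM, and Cks1b, a partner of cyclin-dependent kinases, 477 against 43.6 CPM.

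Glycolysis genes were higher in the cycling cells. Of 16 genes, 6 of the 10 that passed were over 1.5-fold higher and 0 lower, with a median of 1.09. Gapdh had 1710 CPM in cycling against 730 CPM in resting cells, Pkm 442 against 173 CPM, and Eno1 151 against 55.6 CPM. Nuclear genes of oxidative phosphorylation were higher in 9 of 37 and lower in 1, with a median of 0.41. The higher ones were about as frequent as among all genes, of which 25% were higher. Growth genes downstream of Myc were higher in 6 of 11 with a median of 0.68, which became -0.047 after thinning each cell to 1000 UMIs. Nop58, a nucleolar RNA-processing protein, had 142 against 57.8 CPM, but Odc1, the first enzyme of polyamine synthesis, ran the other way, with 572 CPM in cycling against 1364 CPM in resting cells.

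Identity genes that differed were mostly lower in cycling cells. Of 24 identity genes, 11 of the 21 that passed were over 1.5-fold lower and 1 higher in cycling cells, with a median of -0.70 that became 0.15 with immunoglobulin in the total. Sdc1 had 121 CPM in cycling against 263 CPM in resting cells, Slpi 1404 against 4703 CPM, and Zbtb20, a repressor linked to long-lived plasma cells, 51.8 against 153 CPM. Ggh, a folate hydrolase, had 5 UMIs in 24 cycling cells and 133 in 161 resting cells, and Prg2 had 9 and 445. Xbp1 differed less, at -0.48 (-0.61 to -0.35), and became 0.29 with immunoglobulin in the total. Cycling levels here and below include a KI cell with 2.07% and a WT cell with 1.12% immunoglobulin. Both had Sdc1, Slpi, Prg2, Prdm1 and Derl3 at 0. They gave 34544 (KI) and 35921 (WT) of the 463654 non-immunoglobulin UMIs of cycling cells. Over 18 alternatives, 1 of them without such cells, Sdc1 ranged from -1.37 to -0.35 and Derl3 from -1.50 to -0.49.

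The ER genes did not move as 1 block between cycling and resting cells. Folding genes had a median of -0.35, with 2 higher and 5 lower of 23, which became 0.42 with immunoglobulin in the total and 0.13 after thinning. Derl3 had 280 CPM in cycling against 672 CPM in resting cells, Dnajb9, a BiP co-chaperone, 101 against 373 CPM, and Herpud1, of the degradation complex, 755 against 1988 CPM. Ssr4 and Ssr2, both of the translocon-associated complex, parted: Ssr4 had 2001 against 4388 CPM and Ssr2 1400 against 743 CPM. Slc3a2 had 239 against 760 CPM.

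Immediate early genes were lower in cycling cells. Of 18 immediate early and heat shock genes, 10 of the 15 that passed were lower and 3 higher, with a median of -1.52. Fos had 43.1 CPM in cycling against 1369 CPM in resting cells, a ratio of -4.99 (-5.70 to -4.35) and -5.70 in KI alone. Atf3 had 140 against 1299 CPM, Egr1 23.7 against 207 CPM, and Dusp1, a MAP kinase phosphatase, 32.4 against 240 CPM. The 3 higher ones were the chaperones Hsp90aa1, Hsp90ab1 and Hspe1, at 1.15, 1.03 and 1.16. Klf2, a transcription factor of quiescence and trafficking, was lower at 365 against 1453 CPM, while Cxcr4, the receptor for CXCL12, was 140 against 77.4 CPM with 2 UMIs in cycling and 15 in resting cells left after thinning. Cd274, which encodes PD-L1, had 41.0 CPM in cycling against 244 CPM in resting cells.

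After thinning, which also left out 10 cells and gave each cell the same weight, the ratio was -3.67 for Fos, -1.32 for Egr1, -1.96 for Dusp1, -0.62 for Cd274, -0.41 for Ggh, -0.67 for Zbtb20, -0.52 for Sdc1 and -1.12 for Slpi, all still lower in cycling cells. In these thinned ratios a class left without UMIs of a gene was set at a floor of 3 UMIs. Values of sparse genes such as Ggh, Cd274 and Egr1 can therefore be bounds, and their size after thinning does not measure an effect of depth. Markers of other cells differed between these classes too. The summed T cell markers stood at 32.4 CPM in cycling against 173 CPM in resting cells. Myeloid markers stood at 71.2 against 292 CPM, with 194 of the 268 resting UMIs in 3 cells, and without the 3 highest cells of each class at 12.5 against 82.6 CPM. Germinal centre markers stood at 153 against 49.1 CPM, but 2 cycling cells held 55 of their 71 UMIs, and without the 3 highest cells of each class the values were 34.3 against 44.0 CPM. Their part in the differences was not tested; without the cells that had at least 3 UMIs of another cell type, 1091 genes were past 1.5-fold, against 982 with all cells.

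**Figure D3:**
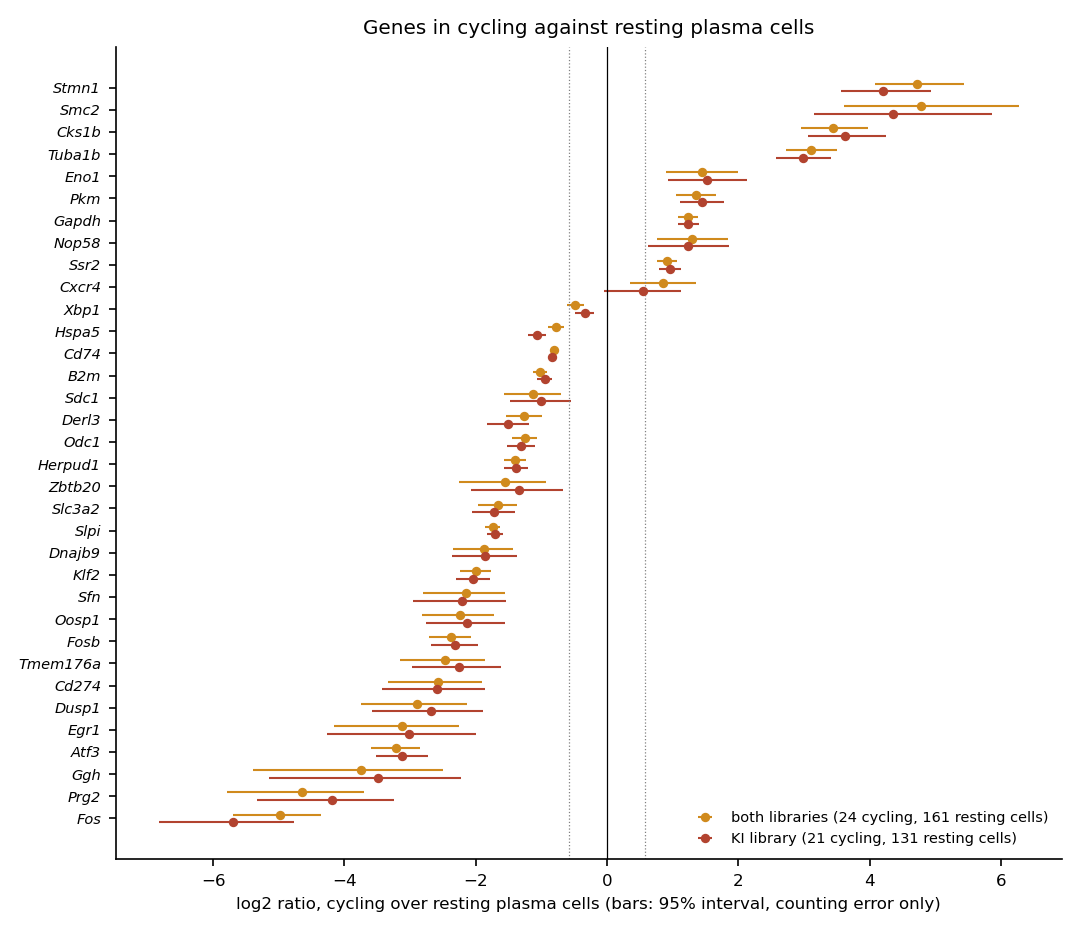
Log2 ratios of cycling over resting plasma cells with 95% intervals for counting error only, for both libraries (24 and 161 cells) and for KI alone (21 and 131 cells); dotted lines mark 1.5-fold. Stmn1 and Smc2 lie farthest to the right and Fos farthest to the left, at -4.99 for both libraries and -5.70 for KI.

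Among resting cells, Slpi went with the antibody class. It had 14147 CPM in the 29 IgG cells against 1794 CPM in the 121 IgM cells, a log2 ratio of 2.98 (2.88 to 3.08), and 3877 CPM in the 11 IgA cells. Within KI the IgG and IgM cells had 17460 and 1940 CPM, and within WT 2855 and 877 CPM. Cells of 1 class overlapped those of another widely, and 1 cell gave 52.6% of the Slpi UMIs of WT IgG cells. In KI, 4 of the 22 IgG cells, at 58776 to 138968 CPM, held 70.0% of the 2814 Slpi UMIs. Without these 4 the KI IgG cells had 6032 CPM, and the ratio of IgG over IgM cells was 1.54 over both libraries.

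Other genes that parted the classes were picked with their values in view. Cxcr3, a chemokine receptor of inflamed tissue, had 19 UMIs in 9 of 29 IgG cells and 7 UMIs in 6 of 121 IgM cells. Tnfrsf17 had 43.2 CPM in IgG against 194 CPM in IgM cells, from 9 and 129 UMIs, and Ggh 24.0 against 191 CPM, from 5 and 127 UMIs. Within WT, the IgG over IgM ratio was -0.98 (-2.76 to 0.49) for Tnfrsf17 and -2.30 (-5.45 to -0.25) for Ggh. Klf2 had 542 against 1594 CPM, and Txndc5, an ER disulfide isomerase, 916 against 2132 CPM. Mzb1, a B-lineage ER cochaperone, was 13226 CPM in IgG against 8373 CPM in IgM cells. Ccr10, a receptor known from IgA plasma cells homing to mucosa, had 6 UMIs in 4 of 11 IgA cells and 9 UMIs in 7 of 121 IgM cells.

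**Figure D4:**
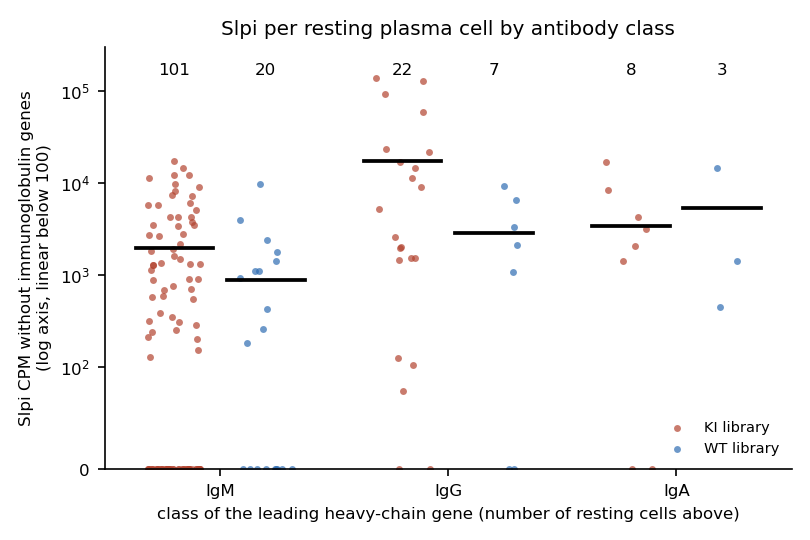
Slpi in each resting plasma cell (CPM without immunoglobulin genes, linear below 100 and logarithmic above) by class of the leading heavy-chain gene, KI left of WT, with the level of the summed cells as a bar and the number of cells above. The summed level was 17460 CPM in KI IgG cells against 2855 CPM in WT IgG cells, and single cells ranged from 0 up in both.

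Plasma cells made up 1.77% (1.503% to 2.073%) of the KI cells and 0.339% (0.234% to 0.476%) of the WT cells, a ratio of 5.22 (3.57 to 7.86). Both values are shares of captured cells, so a change in other cells would also move them. Mefv itself had 1 UMI in KI plasma cells and 0 in WT plasma cells, and 3′ tag counts do not read the knock-in base, so it checks nothing here.

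Within plasma cells, most genes stood near each other in the libraries. Of 2489 genes, 22% were past 1.5-fold: 9.32% were over 1.5-fold higher and 12.7% over 1.5-fold lower in KI than in WT, with a median of 0.00; over resting cells alone 13.5% of 2355 were higher and 14.4% lower. For scale, 54 of 2571 genes were higher and 60 lower in B cells, which held 10881771 (KI) and 15163269 (WT) non-immunoglobulin UMIs. The WT side rests on 33 cells, and its cycling cell with 1.12% immunoglobulin alone gave 35921 of the 227163 non-immunoglobulin UMIs. Values over resting cells, which leave it out, are therefore given beside.

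The genes highest in KI plasma cells included Plac8, Fcer1g, Slpi, Dusp4 and Cd83. Dusp4, a MAP kinase phosphatase, had 549 CPM in KI against 211 CPM in WT, a ratio of 1.38 (0.95 to 1.83) and 1.71 in resting cells; in B cells it was 0.20 and in T cells 0.76. Cd83, an activation marker, had 251 against 96.9 CPM, at 1.37 in all and in resting cells, 0.30 in B cells and 0.72 in T cells. Nfkbia, the inhibitor that NF-kB induces against itself, had 620 against 286 CPM, at 1.12 and 1.26 in resting cells, with -0.16 in B cells and 0.09 in T cells. Plac8 had 453 against 141 CPM and was also higher in KI T cells (0.81) and less so in B cells (0.29). Fcer1g, an Fc receptor gamma chain known from myeloid cells, had 215 against 70.4 CPM, from 54 KI and 6 WT cells. The myeloid markers themselves were 198 CPM in KI against 321 CPM in WT plasma cells, but this order rests on single cells. In WT 1 cell held 65 of 73 UMIs, and in KI the highest cells held 84 and 45 of 228. At least 1 myeloid UMI occurred in 32 of 152 KI and 6 of 33 WT cells. Their part in the Fcer1g difference was not tested.

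Slpi had 4041 CPM in KI against 1329 CPM in WT, a ratio of 1.60 (1.44 to 1.78). Within resting cells of 1 class it was 2.61 (2.36 to 2.87) in IgG and 1.15 (0.82 to 1.49) in IgM cells. Without the 4 KI IgG cells highest in Slpi these became 0.84 over all plasma cells and 1.08 in resting IgG cells, and the level in resting cells of both libraries, given above as 4703 CPM, became 2615 CPM. H1f0, a linker histone of non-dividing cells, had 474 against 185 CPM, at 1.36 and 1.63 in resting cells.

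MHC class II genes, lower in the summed plasma cells than in B cells, were less low in KI. In 5 of 152 KI plasma cells and 0 of 33 WT ones H2-Aa lay above the level of B cells of the same library. Of 7 that passed, 2 were over 1.5-fold higher in KI with a median of 0.57, and in resting cells 6 of 7 with a median of 1.03. Among all genes 9.32% were higher in all plasma cells and 13.5% in resting cells. H2-Aa had 1014 CPM in KI against 421 CPM in WT resting cells, and H2-Eb1 1239 against 607 CPM, while in B cells these genes had ratios of 0.02 and 0.01. The 6 B cell markers moved the same way, at 2593 CPM in KI against 1896 CPM in WT resting cells, and their part in the difference was not tested.

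Folding genes differed between the libraries mainly in resting cells. In all plasma cells 3 of 23 passed 1.5-fold upward and 1 downward in KI, with a median of 0.29, and in resting cells 9 went up and 0 down (median 0.50). Among all genes 9.32% were higher and 12.7% lower in all plasma cells, and 13.5% higher and 14.4% lower in resting cells. Resting Hspa5 had 3202 CPM in KI against 1869 CPM in WT, Hsp90b1 7104 against 3778 CPM, and Manf 2634 against 1482 CPM. Creld2 had 1584 against 474 CPM, with 26% of its KI UMIs in 1 cell. Kdelr2, which returns escaped chaperones to the ER, had 262 against 113 CPM. Lists of the same genes had medians of 0.21 in B cells and 0.07 in T cells.

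Identity genes past 1.5-fold were about as frequent as among all genes. Of 24 identity genes, 1 of the 21 that passed was over 1.5-fold higher and 3 lower, against 12.7% of all genes lower, with a median of -0.24. That median became 0.15 without the plasma cells holding any UMI of another cell type and 0.01 without those holding at least 3. In resting cells alone the median was -0.33, from 5 genes lower and 2 higher. Prdm1 had 83.2 CPM in KI against 163 CPM in WT, a ratio of -0.97 (-1.53 to -0.38), and -1.29 in resting cells, but -0.27 after thinning. Xbp1 had 1654 against 2408 CPM, at -0.54 and -0.71 in resting cells, while Sdc1 stood at 0.22 (-0.25 to 0.72) and Derl3 at 0.30. Pou2af1, the coactivator OBF-1, had 250 against 396 CPM, Mef2c 793 against 1585 CPM and Tcf4, an E protein, 203 against 405 CPM. In B cells Pou2af1, Mef2c and Tcf4 had -0.12, -0.23 and -0.36. Ly6c2, a surface protein of the Ly6 family, had 292 against 1202 CPM in plasma cells and ran the opposite way in B cells (0.46) and T cells (0.79), and 1 cell gave 27% of its WT UMIs.

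Lars2, the mitochondrial leucyl-tRNA synthetase, was the lowest named gene, with 140 CPM in KI against 594 CPM in WT, a ratio of -2.08 (-2.42 to -1.74). It was also lower in KI B cells (-0.42) and T cells (-0.26). Of 13 mitochondrially encoded genes, 8 of the 12 that passed were over 1.5-fold lower in KI plasma cells, with a median of -0.69, against medians of -0.38 in B cells and -0.15 in T cells. The mitochondrial share of non-immunoglobulin UMIs had a median of 3.33% in KI and 5.16% in WT plasma cells. Nuclear genes of oxidative phosphorylation had a median of 0.06, with 1 higher and 1 lower of 36; Atp5k was the lower one of those named, at 231 against 436 CPM, and was -0.56 in both B and T cells.

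Interferon genes are known as markers of exposure to these cytokines. Of 36 type I genes, 7 passed, with 1 higher and 1 lower in KI and a median of -0.12, which was above 0 in 5 of 18 alternatives; in resting cells 8 passed, with 0 higher, 3 lower and a median of -0.47, against 0.25 in both B and T cells. Ly6a had 1697 CPM in KI against 2157 CPM in WT plasma cells but a ratio of 0.82 in B cells and 0.81 in T cells. Ly6e had 762 against 1347 CPM, and Ifi27l2a 433 against 621 CPM. Of 21 genes of the interferon gamma response and immunoproteasome, 3 of 7 were higher, with a median of 0.55, close to the 0.62 of B cells and 0.60 of T cells. Fos was 812 CPM in KI against 1492 CPM in WT plasma cells, with 33% of the WT UMIs in 1 cell, and was higher in KI B cells (0.78) and T cells (0.57).

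Some of these ratios moved under another choice of cells, depth or weighting, and of those named here all but Ly6a moved by over 1.5-fold. Ifi27l2a, at -0.52 over all plasma cells, turned to 0.29 after thinning, from 77 KI and 13 WT UMIs, and Ly6a, at -0.35, turned to 0.03 over IgM-led cells alone. Each gene that follows kept its direction under the 18 alternatives. Over IgM-led cells alone, Plac8 had 2.51, Fcer1g 2.43, Dusp4 2.10 and Lars2 -1.42. Over resting IgM-led cells Ly6c2 had -1.13, Atp5k -1.51 and Derl3 1.36, against 0.30 for Derl3 over all plasma cells. Derl3 ranged from 0.09 to 1.36 over the 18 alternatives. A resting KI IgM-led cell with 13884 non-immunoglobulin UMIs had 10516 CPM of Derl3. It also entered the KI and resting Derl3 values given above, and its part in these ratios was not tested. Slpi had 2.46 without the plasma cells holding any UMI of another cell type, Cd83 had 2.05 after thinning, and Pou2af1 -1.35 with each cell weighted equally.

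**Figure D5:**
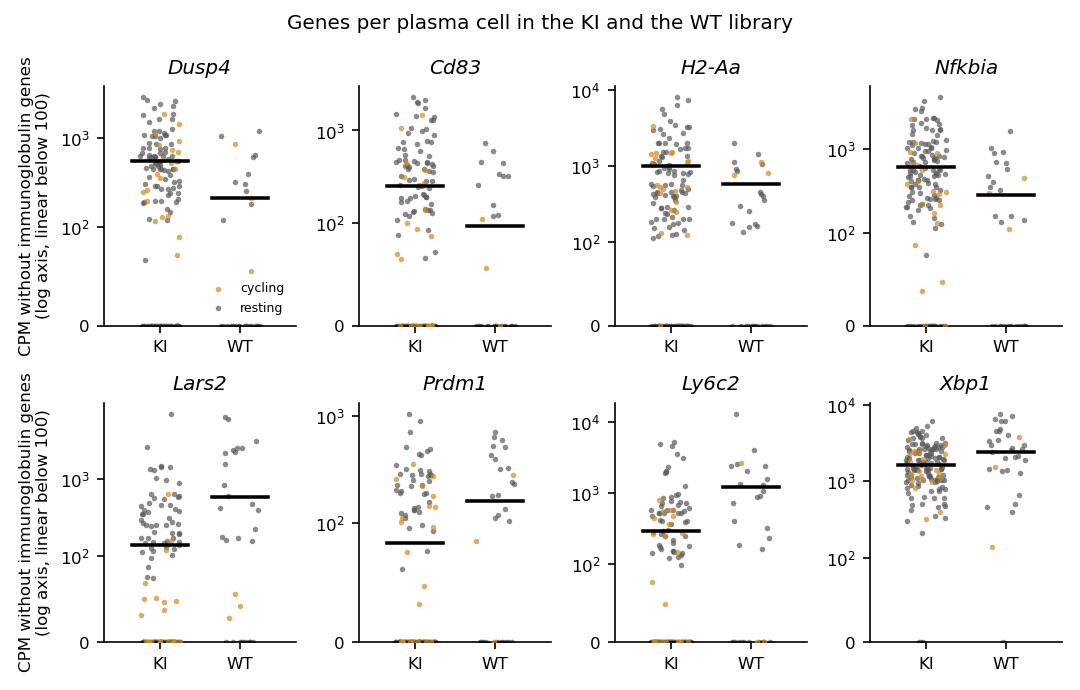
CPM without immunoglobulin genes in each KI and WT plasma cell (linear below 100 and logarithmic above), cycling and resting cells in separate colours, with the level of the summed cells as a bar. Dusp4, Cd83, H2-Aa and Nfkbia have the higher bar in KI, Lars2, Prdm1, Ly6c2 and Xbp1 in WT, and the single cells of the libraries overlap for each gene.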

How the data were processed

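Mechanically dissociated spleens, after lysis of red cells, went into libraries of the 10x 3′ chemistry version 3.1 with 10000 cells as the target, per the labels' protocols. The deposited matrices hold raw UMI counts for each gene and barcode, and their headers name Cell Ranger 6.1.2. Cell Ranger 7.1.0, Seurat 5.0.3 and mm10 are listed in the submitters' processing notes. Which version made the counts, and how barcodes were chosen, is not given in the sources used here.

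Counts of 32285 features were summed over the plasma cells of a library and scaled without 393 immunoglobulin and Jchain features. The plasma cell rule, the gene lists and the text's choice of genes were made with earlier results of these data known. A gene was counted past 1.5-fold with a mean of at least 50 CPM and at least 20 UMIs. Genes were named as the 10 highest and 10 lowest ratios of each comparison with a mean of at least 100 CPM, 30 UMIs, a UMI in 10 cells and no cell over 20% of the UMIs of the higher group, plus markers and the 4 largest ratios of each list. Antigen receptor, ribosomal protein, mitochondrial, haemoglobin and sex-linked genes were left out, and the text gives a part. Further genes it names were picked with their values in view. Symbols Mx1, Mx2 and Vimp matched no feature. Gene positions are from GENCODE on GRCm38.

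Doublets were kept: Scrublet in scanpy 1.11.5 (expected rate 0.08) marked 1 KI cell (0.0117%), so it had not worked there, and 157 WT cells (1.61%), with 0 plasma cells among them. A score limit of 0.25, added after seeing the data, marked 4 KI and 0 WT plasma cells. Python 3.11.15, scipy 1.17.1, R 4.3.3 and edgeR 4.0.16 (TMM factors only) were used. The scripts were tested on simulated data. Intervals are at 95% (exact binomial for ratios, Clopper-Pearson for shares).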

Additional observations from a re-analysis of the deposited data

Results flagged for a closer look

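Hspa5, which encodes the ER chaperone BiP, ran in opposite directions between cycling and resting plasma cells of the libraries, with a log2 ratio of -1.07 (-1.20 to -0.94) in KI and 0.59 (0.32 to 0.85) in WT. It had 1530 CPM in cycling against 3202 CPM in resting KI cells, and 2806 against 1869 CPM in WT. The WT value rests on 3 cycling cells, 1 of which held 78% of their Hspa5 UMIs, and the difference was not tested.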

How the results depend on the processing

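The ratio of plasma cell shares, the cycling shares and the counts of genes past 1.5-fold were recomputed under 99 alternatives, of which 93 stayed within the interval or within 1.5 times. Some of the 93 could not differ, since removing Scrublet doublets left out 0 plasma cells. Counts within 1.5 times can also hide a changed share. Thinned KI over WT gave 443 of 1170 genes (37.9%, against 22% of 2489). With no filter on low values the counts became 3545 for KI over WT (548 with the filter), 4665 for cycling over resting cells (982), and 6605 (KI, 1309) and 5928 (WT, 1431) for plasma over B cells. With immunoglobulin in the total, KI over WT gave 247 of 1354 tested genes (18.2%, against 22% of 2489), and after thinning cycling over resting gave 559 of 1170 (47.8%, against 39.8% of 2470). Gene ratios and list medians past 1.5-fold that changed sign were, with immunoglobulin in the total, 0.15 for the identity genes of cycling over resting cells, and for plasma over B cells -0.18 (KI) and -0.25 (WT) for unfolded protein response regulators and -0.15 and -0.31 for amino acid supply. After thinning, cycling over resting gave -0.047 for the Myc list and -0.25 for Cxcr4, from 2 and 15 UMIs. Counting any change of sign, whatever the size, 5 of 141 named gene ratios (Ifi27l2a, Ly6a and Sdc1 for KI over WT, Cxcr4 and Xbp1 for cycling over resting) and 21 of 44 list medians turned under at least 1 alternative. For cycling over resting these included the folding genes (-0.35, up to 0.42) and the unfolded protein response regulators (-0.43, up to 0.29). Of 2314 values of named genes, 1892 stayed within the counting interval.

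Among genes past 1.5-fold, 62.8% were higher in cycling cells, against 43.9% with TMM, 45.6% after thinning and 96.5% with immunoglobulin in the total. That total took the higher share of plasma over B cells to 13.5% (KI) and 12.1% (WT), from 50.4% and 52.2%, and of KI over WT to 62.8%, from 42.3%, as did thinning (62.1%). Values without the cells highest in Slpi or in markers of other cells were chosen after seeing the data. Leaving out the cells under 10% immunoglobulin, chosen likewise, gave 547 genes for KI over WT and 933 for cycling over resting. No paired analysis was possible because each genotype has 1 library. The WT values rest on 33 plasma cells, 3 of them in cycle.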
